A study of Mus musculus with 27 samples.

Results

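The comparison described here sets mouse cells without the Tet enzymes beside their parental line 1 day after naive embryonic stem cells were moved out of the 2i/Lif medium towards epiblast-like cells (EpiLC). It uses the 3 libraries labelled TET_KO (genotype TET1/2/3_KO, in which all 3 Tet genes are knocked out) and the 3 labelled TET_WT, its wild-type parent, both on day 1 (D1). These are 6 of the 27 whole-genome bisulfite libraries of the series, and every group shares the starting culture in 2i/Lif and the EpiLC protocol. The other libraries used are the same pair of lines on D0 (naive cells) and D2, and DNMT_WT, the wild-type parent of another knockout line, on D1. The labels name no allele, clone, strain or sex, and they describe a single knockout line, so a difference between the lines cannot be told apart from a difference between clones. Of 453245 windows of about 100 CpGs in the deposited table, the 422141 autosomal windows with a value in all 27 libraries were described. These windows had a median length of 4949 bp, and 52.4% of them overlapped an annotated gene body.

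DNA methylation in mammals is placed on CpG dinucleotides by Dnmt3a and Dnmt3b, helped by Dnmt3l, and is copied at replication by Dnmt1, which Uhrf1 brings to newly made DNA. Tet1, Tet2 and Tet3 oxidise 5-methylcytosine to 5-hydroxymethylcytosine and further forms, a step towards its loss. Naive cells in 2i/Lif carry little methylation, and the genome is remethylated as they pass to the formative, epiblast-like state. Bisulfite sequencing reads 5-methylcytosine and 5-hydroxymethylcytosine alike, so each percentage below is their sum. In a bulk library a percentage does not tell apart fewer methylated cells from fewer methylated copies per cell. Methylation gives no check of the knockout or of the labelled cell type, because expressed markers were not measured in these libraries.

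Promoter sequences of 6 genes are printed because they span what was seen at gene starts on D1. In the windows holding their starts, Lhx9, Hormad1 and Zbtb38 were far more methylated in TET_KO, and Kit was unmethylated in both lines. Peg3 and Nkx2-1 were less methylated in TET_KO. Each printed sequence is the RefSeq promoter (GRCm38.p6) from 250 bases before to 50 bases after a start. It is read 5′ to 3′ on the gene's strand, with each CpG in capitals. The stretches are chr1:138842395-138842694 (minus strand, Lhx9), chr3:95559427-95559726 (plus strand, Hormad1), chr9:96731626-96731925 (minus strand, Zbtb38), chr5:75574737-75575036 (plus strand, Kit), chr7:6730370-6730669 (minus strand, Peg3) and chr12:56536859-56537158 (minus strand, Nkx2-1).
Lhx9: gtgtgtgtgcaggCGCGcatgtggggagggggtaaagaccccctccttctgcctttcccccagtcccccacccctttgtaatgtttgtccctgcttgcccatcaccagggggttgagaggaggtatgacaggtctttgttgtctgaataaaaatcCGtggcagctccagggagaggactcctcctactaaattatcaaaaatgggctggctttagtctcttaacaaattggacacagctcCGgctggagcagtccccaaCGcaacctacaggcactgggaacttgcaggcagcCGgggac
Hormad1: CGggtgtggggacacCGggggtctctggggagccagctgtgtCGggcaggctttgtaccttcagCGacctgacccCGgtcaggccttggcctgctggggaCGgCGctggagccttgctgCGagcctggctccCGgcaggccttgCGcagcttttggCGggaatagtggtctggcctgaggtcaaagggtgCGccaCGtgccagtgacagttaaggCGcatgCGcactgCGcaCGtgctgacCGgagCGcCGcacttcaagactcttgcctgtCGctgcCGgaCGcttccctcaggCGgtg
Zbtb38: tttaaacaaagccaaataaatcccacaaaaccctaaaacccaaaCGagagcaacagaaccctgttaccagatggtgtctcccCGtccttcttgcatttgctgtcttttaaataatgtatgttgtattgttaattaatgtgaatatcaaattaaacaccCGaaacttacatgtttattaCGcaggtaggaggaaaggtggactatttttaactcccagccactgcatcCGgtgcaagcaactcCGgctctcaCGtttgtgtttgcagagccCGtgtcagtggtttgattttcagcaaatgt
Kit: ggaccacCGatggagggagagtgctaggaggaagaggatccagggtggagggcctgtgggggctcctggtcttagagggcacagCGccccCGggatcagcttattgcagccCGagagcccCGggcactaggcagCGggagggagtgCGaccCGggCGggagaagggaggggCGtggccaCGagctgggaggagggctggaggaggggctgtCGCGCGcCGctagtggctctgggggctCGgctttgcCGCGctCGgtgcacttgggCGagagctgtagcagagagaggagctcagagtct
Peg3: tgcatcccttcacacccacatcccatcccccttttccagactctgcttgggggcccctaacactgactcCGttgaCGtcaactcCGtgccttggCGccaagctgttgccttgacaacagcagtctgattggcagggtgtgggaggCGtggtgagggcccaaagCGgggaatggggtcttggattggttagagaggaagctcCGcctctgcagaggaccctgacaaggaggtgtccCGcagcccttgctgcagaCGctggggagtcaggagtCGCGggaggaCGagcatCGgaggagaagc
Nkx2-1: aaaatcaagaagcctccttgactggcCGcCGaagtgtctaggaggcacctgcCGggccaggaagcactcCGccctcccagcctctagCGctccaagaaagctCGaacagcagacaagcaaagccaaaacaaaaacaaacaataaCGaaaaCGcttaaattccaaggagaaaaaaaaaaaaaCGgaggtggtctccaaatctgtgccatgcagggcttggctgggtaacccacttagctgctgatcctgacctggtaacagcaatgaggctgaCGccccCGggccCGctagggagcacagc
The Lhx9 promoter held 6 CpGs, that of Hormad1 24, Zbtb38 8, Kit 20, Peg3 13 and Nkx2-1 12. A CG was present in 94.8% of the promoters of the 14299 gene starts measured, their median was 14 CpGs, and 27.6% held at least 24. The 6 genes were chosen after their values had been seen.

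On D1 the knockout line carried more methylation over nearly the whole autosomal genome. The window mean was 34.2%, 31.3% and 34.2% in the TET_WT libraries and 59.0%, 59.0% and 60.04% in the TET_KO libraries. No library of one line came near the other, and TET_WT replicate 2 was the lowest of its group. The group means were 33.2% ± 1.70 and 59.3% ± 0.613 (SD, n = 3 libraries each), a difference of 26.1 points ± 1.04 (SE). The exact two-sided permutation test gave p = 0.1, the smallest value that 3 against 3 libraries allow. Without TET_WT replicate 2 the difference was 25.1 points. The deposited values are percentages without counts, so no depth or counting interval can be given. The labels do not say whether replicates are separate cultures, so the p-values measure only the spread between these libraries.

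The 2 lines differed in the shape of the distribution as well as its centre. Windows at 70% or more made up 30.5%, 30.5% and 34.96% of the TET_KO libraries, against 0.906%, 0.619% and 0.906% of the TET_WT libraries. Windows below 10% made up 4.76% to 4.79% of TET_KO and 7.29% to 7.90% of TET_WT. The unmethylated peak at the left of the distribution was therefore present in both lines, while the bulk of the genome lay at medians of 31.6% to 34.9% in TET_WT and 63.8% to 65.1% in TET_KO. Of the 31320 windows with a TET_WT mean below 10%, 20091 (64.1%) were also below 10% in TET_KO. In 2014 of them the TET_KO mean was 30% or more, in 250 it was 50% or more, and in 25 it was 70% or more.

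**Figure D1:**
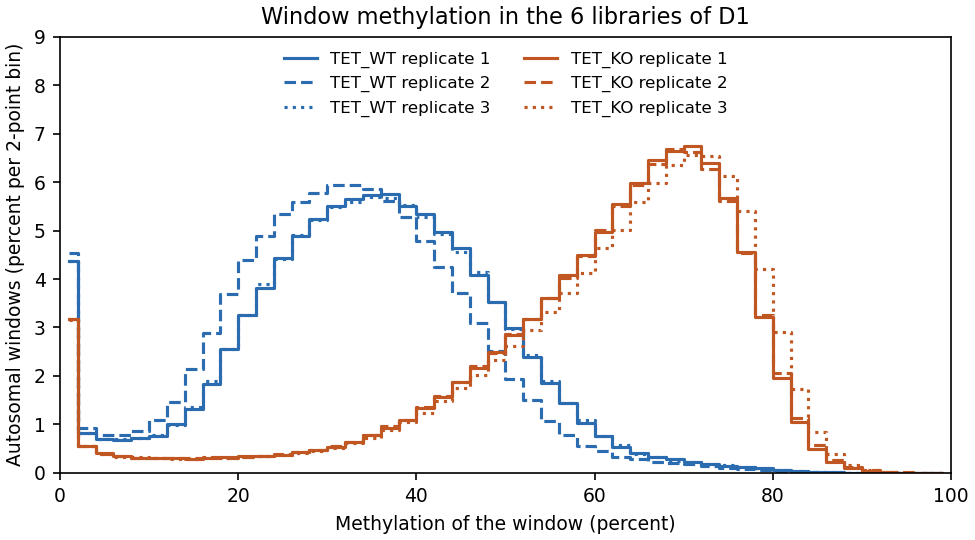
Distribution of window methylation (x axis, percent) in the 6 libraries of D1, as the percent of the 422141 autosomal windows per bin of 2 points (y axis); blue lines are TET_WT, orange lines TET_KO, and the line style marks the replicate. The TET_KO libraries peak near 70% and the TET_WT libraries between 30% and 40%, and both lines keep a peak at the unmethylated end.

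Window by window, 391474 windows were more methylated in TET_KO and 105 less (limma, Benjamini-Hochberg adjusted p below 0.05 and at least 10 points). These are 92.7% and 0.0249% of the windows tested. The median window differed by 27.5 points. Libraries of the 2 lines did not overlap in 407336 windows with TET_KO higher (96.5%) and in 331 with TET_KO lower (0.0784%). The split depends on the scale: with each library's own median subtracted, 12044 windows were higher and 81434 lower relative to the shift of the whole genome.

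The size of the difference followed CpG density and the level the parent held in the naive state. In windows shorter than 1000 bp, the densest in CpGs, the means were 1.66% in TET_WT and 3.52% in TET_KO, and 4.63% of these 15884 windows were called higher. Windows of 1000 to 3000 bp had means of 29.8% and 53.5%, and 80.8% of them were called. In windows of 3000 to 16000 bp, which make up most of the genome, the means were 35.2% and 62.9% and 98.7% were called. The 948 windows longer than 16000 bp, the poorest in CpGs, stood lower in both lines (23.5% and 47.7%), with a difference of 24.2 points ± 0.774 (SE).

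Windows with 20% to 40% in naive TET_WT, a level measured in libraries outside this comparison, had a D1 difference of 28.99 points. Those with 5% to 20% differed by 27.2 points. The difference was 21.3 points at naive levels of 40% to 60% and 8.68 points at 60% and above, where TET_WT was already high. It was 6.07 points in the 28685 windows below 5% in the naive parent. Windows inside genes differed by 25.7 points ± 1.07 and windows outside by 26.6 ± 1.01 (SE, n = 3 libraries of each line). By chromosome the difference lay between 25.3 points on chromosome 6 and 26.96 points on chromosome 14.

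**Figure D2:**
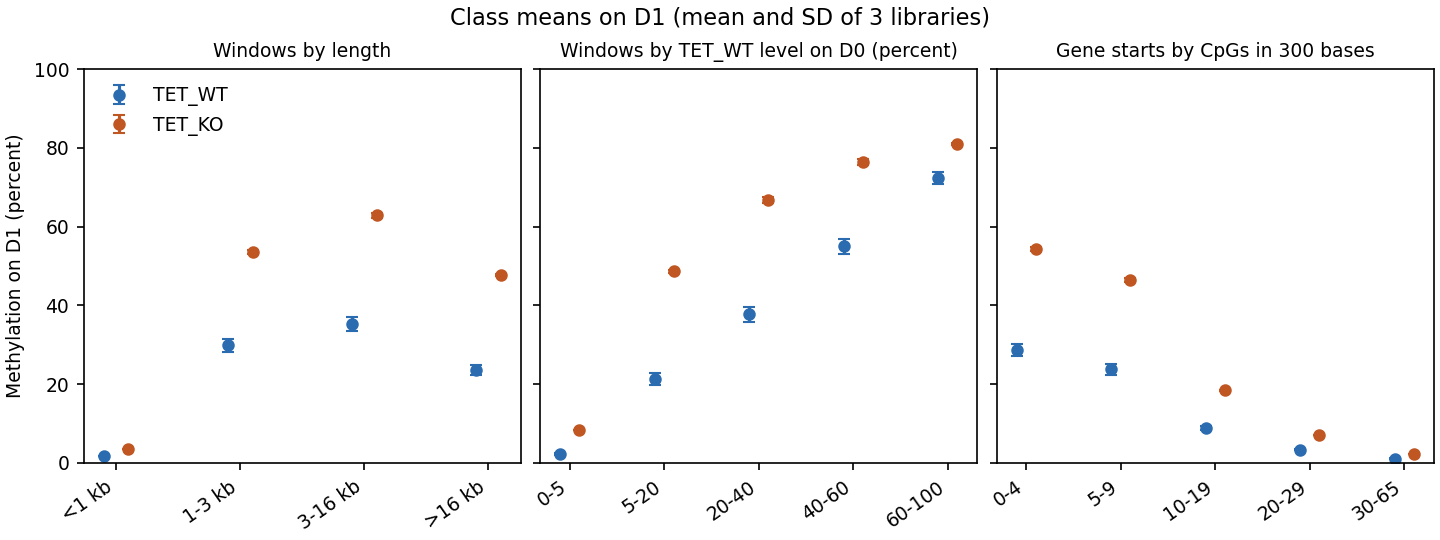
Mean methylation on D1 (y axis, percent) in TET_WT (blue) and TET_KO (orange) for windows by length, windows by their TET_WT level on D0, and gene starts by the number of CpGs in their 300-base promoter; points are means and bars the SD of 3 libraries. The lines lie closest in windows under 1 kb (1.66% and 3.52%), in windows below 5% in naive cells and at gene starts with 30 to 65 CpGs.

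Gene starts showed the same dependence on CpG content. Where a gene had several annotated starts, only the one nearest the 5′ end of its body was used. A start was given the window that holds it, and 7091 of 14299 starts (49.6%) were more methylated in TET_KO while 5 (0.0350%) were less, with a median difference of 9.78 points. With each library's median over gene starts subtracted, 4639 starts were higher and 4038 lower. These counts are relative to the starts, not to the whole genome. Among the 3982 genes with 0 to 4 CpGs in the promoter, the start window had means of 28.7% and 54.3%, and 96.7% were called higher. Starts with 10 to 19 CpGs differed by 9.46 points and 39.5% were called. At 20 to 29 CpGs the means were 3.36% and 7.07%, with 13.1% called. The 2163 starts with 30 to 65 CpGs had means of 1.07% and 2.31%, and 2.45% of them were called. The windows also differed in length along this order, from a median of 7784 bp to 451 bp, since a window holds a set number of CpGs.

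Examples show both sides of that order. Hormad1, a meiotic chromosome axis protein whose promoter held 24 CpGs, measured 15.6%, 13.4% and 13.2% at its start in TET_WT and 61.3%, 62.4% and 59.9% in TET_KO. The difference was 47.1 points ± 2.76 (SE, limma adjusted p = 2.99e-13), a large difference in the window of a CpG-rich promoter. Kit, the stem cell factor receptor, had 20 CpGs in its promoter. Its start measured 0%, 0.177% and 1.12% in TET_WT against 0.210%, 0.168% and 0.421% in TET_KO. These values belong to whole windows, 1676 bp long for Hormad1 and 730 bp for Kit, so the regions measured were not matched in CpG density. The 2 lines overlapped at the Kit start, although over the whole Kit gene body they differed by 30.2 points ± 1.23. The start of Zbtb38, a zinc finger protein that binds methylated DNA, measured 29.6%, 23.3% and 28.7% in TET_WT and 74.2%, 78.5% and 82.1% in TET_KO. Its difference was 51.1 points ± 1.96, at 1 of 3 annotated starts. Hspb3, a small heat shock protein, had the largest difference of any single gene start and body, 60.8 points ± 1.92 over 1 window, with 17.9% to 20.7% in TET_WT and 79.0% to 81.9% in TET_KO.

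Over gene bodies, each taken as the mean of its windows, 19575 of 20355 genes (96.2%) were more methylated in TET_KO and 1 (0.00491%) was less. The medians were 28.9% in TET_WT and 54.4% in TET_KO, and the median difference was 24.4 points. With each library's median over gene bodies subtracted, 298 were higher and 2190 lower. With the shortest window of each gene 8455 were higher and 12 lower. Among genes with at least 2 windows the largest differences were in Cct8l1 and Rnf223 (both 45.1 points), Cib3 (44.6), Lhx9 (44.5) and Cryga (42.8), the last a lens crystallin. Cct8l1 measured 35.2%, 28.0% and 35.3% in TET_WT and 77.0%, 79.0% and 78.0% in TET_KO. The lines stood clear of each other in each of these 5 genes.

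Genes were further described in 12 lists, of which 405 of 409 genes were measured, and 341 bodies were higher in TET_KO. Relative to the shift shared by gene bodies (each library's median over all gene bodies subtracted), 6 were higher and 121 lower. Over all 20355 bodies the same subtraction gave 298 higher and 2190 lower. A body that differed little between the lines counts as lower on that scale, such as Foxd3 (0.119 points before and -25.4 after). The counts below are to be read beside that shift and the shares of all genes called higher, 96.2% of bodies and 49.6% of starts. With the body replaced by its shortest window, 121 were higher and 4 lower. Directions below are absolute differences. The count of members lower after subtracting the median is given with each list, to be read beside 2190 of 20355 bodies.

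The enzymes and readers of DNA methylation were higher in 30 of 33 bodies, beside 96.2% of all genes (median 23.8 points; 2 higher and 6 lower after subtracting the median). Like most gene bodies, those of the knocked-out genes were more methylated in the line labelled as lacking them. Tet1 measured 20.7%, 17.2% and 19.9% in TET_WT and 55.8%, 55.3% and 56.1% in TET_KO, a difference of 36.5 points ± 1.35 (SE; limma adjusted p = 2.13e-19). Tet2 differed by 27.2 points ± 1.21 and Tet3 by 24.7 ± 0.966. The median difference over all bodies was 24.4 points, and with medians subtracted Tet3 turned to -0.84 points. In the shortest window of each gene, Tet2 (-0.36 points, limma adjusted p = 0.552) and Tet3 (-0.29 points, 0.763) did not differ detectably. Tet1 stood at -1.16 points there (limma adjusted p = 0.00162), far below the size set for a call. The start of Tet1 was low in both lines (1.22% to 2.51% and 6.88% to 9.17%), and that of Tet2 was at or below 0.859% in every library.

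Dnmt1, the maintenance methyltransferase, differed by 33.6 points ± 1.35 over its body, with 31.9% to 36.2% in TET_WT and 67.5% to 69.2% in TET_KO. The de novo enzymes differed less: Dnmt3a by 23.8 points ± 0.916 and Dnmt3b by 20.9 ± 1.06, and their cofactor Dnmt3l by 25.3 ± 1.09. The start of Dnmt3b, a promoter of 30 CpGs, measured 6.46%, 4.03% and 6.18% in TET_WT and 17.3%, 16.1% and 20.7% in TET_KO. That difference of 12.5 points ± 1.81 passed the threshold. Only 4 of 24 starts in this list did so (Dnmt3b, Zbtb38, Dnmt1 and Dnmt3l), beside 49.6% of all starts. The median difference at the starts of the list was 0.320 points, beside 9.78 for all starts. The Dnmt1 value at the start (34.2 points ± 3.34) belongs to the outermost of 3 annotated starts, whose promoter held 2 CpGs. Uhrf1 was higher by 30.2 points ± 1.09 over the body while its start stayed at or below 2.28% in all 6 libraries. Gadd45b, a stress-response gene linked to demethylation, was the list's least changed body, with 0.241% to 0.491% in TET_WT and 3.64% to 4.04% in TET_KO.

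Naive pluripotency genes were split between bodies, mostly higher in TET_KO, and starts, mostly not called. Both shares called higher were below those of all genes, 96.2% of bodies and 49.6% of starts. Of 29 bodies 20 were higher (median 18.5 points, from 9.30% to 32.8%; 2 higher and 12 lower after subtracting the median), and of 18 starts 4 were higher, with a median difference of 0.173 points. Manba had the largest difference in the list, with 21.7%, 17.9% and 21.2% in TET_WT and 59.8%, 59.2% and 60.8% in TET_KO, 39.7 points ± 1.18. Pecam1, an adhesion molecule of naive cells, differed by 36.3 points ± 1.14, Jam2 by 32.2 ± 1.09 and Lifr, the receptor of the culture cytokine LIF, by 30.9 ± 1.20. Dppa5a, covered by 1 window, measured 0% to 1.87% in TET_WT and 0.481% to 1.09% in TET_KO, and the libraries overlapped.

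The core factors fell on the unmethylated side at their starts. Nanog measured 0.258%, 0.656% and 0.243% at its start in TET_WT and 1.94%, 3.76% and 3.05% in TET_KO, and 2.53 points ± 0.587 was below the size set for a call. Over its body of 3 windows Nanog differed by 20.03 points ± 1.03 (8.19% to 9.37% against 28.1% to 29.6%). Pou5f1 was at or below 1.74%, Sox2 at or below 0.922%, Zfp42 at or below 0.904% and Fgf4 at or below 1.45% at the start in all 6 libraries. Esrrb, a nuclear receptor of the naive network, stood apart at its start with 29.7%, 26.0% and 31.9% in TET_WT and 63.6%, 66.4% and 66.5% in TET_KO, a difference of 36.3 points ± 2.18. The Esrrb value belongs to 1 of 2 annotated starts, with 7 CpGs in its promoter. Lif, the cytokine gene itself, differed by 24.1 points ± 2.71 at its start.

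The list of formative and primed epiblast genes behaved alike. Its shares called higher were also below those of all genes, 96.2% of bodies and 49.6% of starts. Bodies were higher in 24 of 30 (median 22.02 points; 0 higher and 11 lower after subtracting the median) and starts in 4 of 16 (median 0.476 points). Wnt8a, a secreted signal of the early epiblast, differed by 34.95 points ± 1.21. Spry4, a feedback inhibitor of FGF signalling, measured 8.31%, 7.19% and 9.004% in TET_WT and 40.4%, 40.05% and 39.9% in TET_KO, 32.0 points ± 0.770. Lefty2, a Nodal antagonist, differed by 30.1 ± 1.53 and Cdh2, N-cadherin, by 28.8 ± 1.12. Foxd3 was unmethylated in both lines, at 0.368% to 1.03% and 0.409% to 1.32%. The start of Otx2, a leading factor of the formative state, differed by 13.4 points ± 1.14 (1 of 4 annotated starts). That of Dkk1, a Wnt inhibitor, differed by 26.0 ± 1.60.

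Germline genes were higher in 47 of 48 bodies, beside 96.2% of all genes (median 25.6 points; 0 higher and 1 lower after subtracting the median). Of their starts 28 of 38 were higher, beside 49.6% of all starts (median 19.7 points). Many genes of this kind are silenced by promoter methylation in somatic cells. Ddx4, a germ cell RNA helicase, differed by 33.9 points ± 1.18 over its body, with 29.8% to 31.8% in TET_WT and 64.6% to 65.7% in TET_KO. Piwil1, of the piRNA pathway, differed by 32.8 ± 1.20, Majin, which tethers meiotic telomeres, by 31.5 ± 1.35 and Figla, an oocyte transcription factor, by 31.3 ± 1.70. Tex19.1 was the exception. It measured 33.5%, 25.4% and 34.8% in TET_WT and 31.8%, 29.1% and 31.3% in TET_KO, and the libraries of the 2 lines overlapped.

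Genes of the haematopoietic and endothelial lineage, which the series' title names, were higher in 49 of 50 bodies (median 26.8 points; 0 higher and 5 lower after subtracting the median) and in 20 of 36 starts (median 21.6 points). These shares are near those of all genes, 96.2% of bodies and 49.6% of starts. Eng, a TGF-beta co-receptor of endothelium, measured 35.1%, 34.5% and 36.9% in TET_WT and 68.6%, 67.6% and 69.1% in TET_KO, 32.9 points ± 0.993. The transcription factor Ets1 differed by 32.4 points ± 1.13 and the endothelial sialomucin Emcn by 31.9 ± 1.42. Sox18 was the single body not called, at 9.48 points ± 0.721. At the starts, Tie1, an endothelial receptor, differed by 33.9 points ± 1.47 and the outer start of Runx1, a founding factor of blood, by 26.8 ± 2.44. The start of Gata2, with 32 CpGs in its promoter, lay between 0% and 1.89% in TET_WT and between 2.07% and 8.39% in TET_KO, which was no call.

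Among the lists of other lineages the median difference over bodies ran from 26.1 points (primitive endoderm and trophoblast) to 11.5 points (neuroectoderm). Among all genes, 96.2% of bodies and 49.6% of starts were called higher. Primitive endoderm and trophoblast genes were higher in 22 of 24 bodies (median 26.1 points; 0 higher and 5 lower after subtracting the median) and 11 of 17 starts (18.8 points). Gcm1, a trophoblast factor, differed by 34.7 points ± 1.39, the basement membrane genes Col4a2 by 31.6 ± 1.08, Lamc1 by 31.5 ± 1.19 and Sparc, a matrix protein, by 30.6 ± 1.31, while Ascl2 differed by 4.83 ± 0.567. Mesoderm and endoderm genes were higher in 27 of 30 bodies (median 18.9 points; 1 higher and 12 lower after subtracting the median) and 8 of 16 starts (10.1 points). Tbx6, a factor of paraxial mesoderm, measured 25.8%, 24.7% and 32.4% in TET_WT and 67.1%, 69.0% and 69.4% in TET_KO over its body, and differed by 44.6 points ± 2.72 at its start. Msgn1 differed by 35.4 ± 1.80, Meox1 and Hnf4a by 28.5 each, and Sox17 by 6.61 ± 0.558.

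Neuroectoderm and Hox genes had the smallest medians over gene bodies. Both had a smaller share of bodies called higher than all genes (96.2%), and 49.6% of all starts were called higher. In TET_WT on D1, 19 of 27 neuroectoderm and 31 of 39 Hox bodies were below 10%, beside 1393 of 20355 bodies. A small absolute difference counts as lower once the median is subtracted. Neuroectoderm bodies were higher in 15 of 27 (median 11.5 points, from 7.34% to 18.7%; 0 higher and 20 lower after subtracting the median), and 2 of 19 starts were higher. Map2, a dendritic microtubule protein, differed by 29.05 points ± 1.15, Pax3 by 28.4 ± 0.919 and Emx2 by 25.6 ± 1.14, while Nkx6-1 stayed at 1.74% to 1.90% in TET_WT and 4.59% to 5.55% in TET_KO. Hox bodies were higher in 24 of 39 (median 10.8 points, from 6.23% to 17.3%; 0 higher and 28 lower after subtracting the median). Hox starts were higher in 10 of 18, with a median of 12.6 points beside 9.78 for all starts. Hoxd4 differed by 25.7 points ± 1.36, Hoxb13 by 25.1 ± 1.19, Hoxc4 by 24.8 ± 0.967 and Hoxb1 by 23.3 ± 1.18, and Hoxd11 by 3.67 ± 0.409. The start of Hoxd4 measured 24.8%, 22.4% and 26.8% in TET_WT and 61.2%, 57.1% and 63.3% in TET_KO.

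The 2-cell-like genes were higher in 21 of 21 bodies (median 28.3 points; 1 higher and 1 lower after subtracting the median) and 11 of 11 starts (32.2 points). Zscan4d, a marker of the 2-cell-like state, differed by 37.4 points ± 1.79 over its body, and Pramel6 by 34.7 ± 2.03. Tcstv3, in 1 window, differed by 13.3 points ± 3.19, a call lost without TET_KO replicate 3 (9.99 points). Zscan4d, Pramel6 and Tcstv3 belong to families of near-identical copies, so their reads may be shared between copies. Ubiquitously expressed genes were higher in 22 of 29 bodies (median 18.2 points; 0 higher and 10 lower after subtracting the median) and 5 of 21 starts (0.569 points). Gpi1, a glycolytic enzyme, differed by 32.3 points ± 1.39 and Gusb, a lysosomal enzyme, by 32.2 ± 1.14, while Eef1a1 differed by 3.08 ± 0.594. The starts of Gapdh and Rplp0 were at or below 0.772% in all 6 libraries. Both shares of the ubiquitously expressed list were below those of all genes, 96.2% of bodies and 49.6% of starts.

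**Figure D3:**
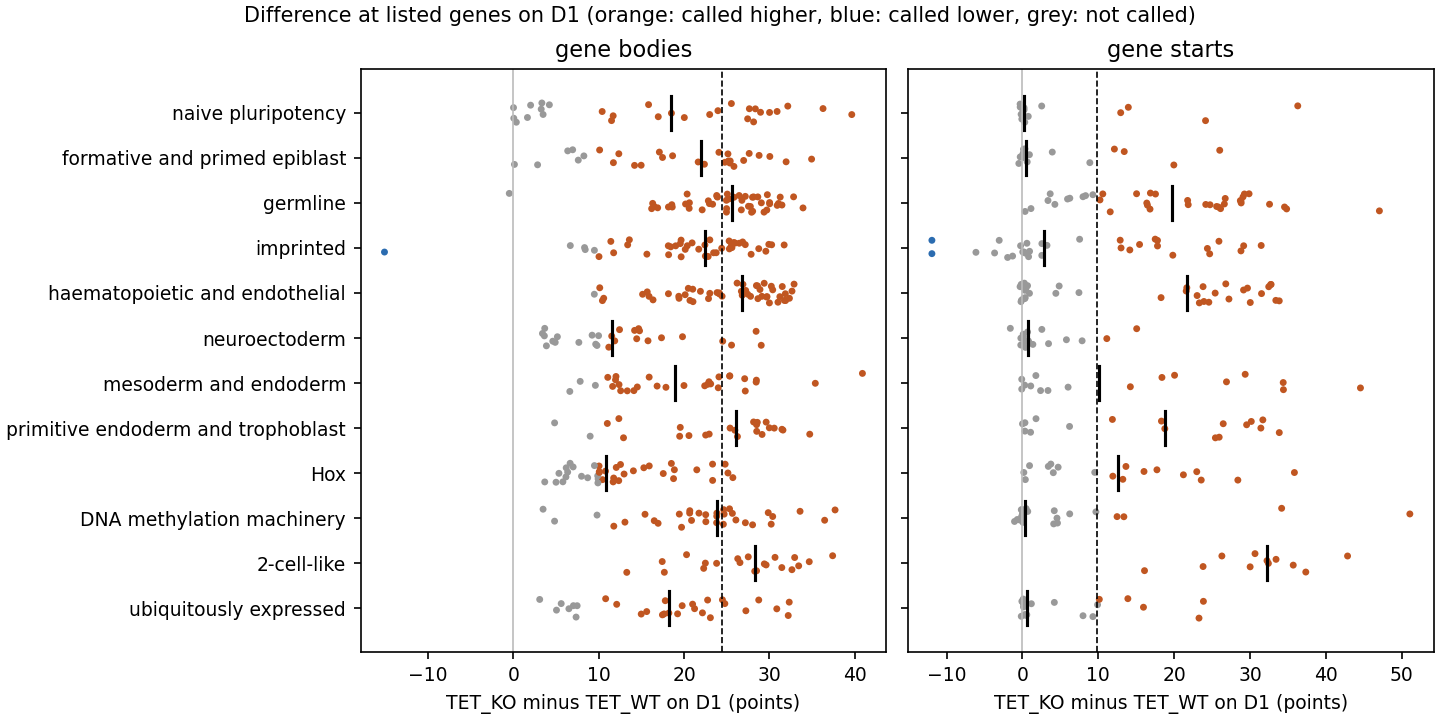
Difference TET_KO minus TET_WT on D1 (x axis, points) for each measured member of 12 gene lists, over gene bodies (left) and in the window at the gene start (right); orange is called higher, blue lower, grey not called, black bars are list medians and the dashed line the median of all genes (24.4 and 9.78 points). Nearly all bodies lie to the right of 0, while starts of naive, formative, neuroectoderm, machinery and ubiquitously expressed genes crowd at 0. Once library medians over gene bodies are subtracted, 6 listed bodies are higher and 121 lower, beside 298 and 2190 of all 20355 bodies.

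The imprinted list held the only gene body that was lower in TET_KO. Its share of bodies called higher was below the 96.2% of all genes. Of 45 bodies 40 were higher (median 22.4 points) and 1 lower; after subtracting the median 0 were higher and 10 lower. Ddc, which is imprinted in heart, differed by 31.7 points ± 1.10, and the Dlk1-Dio3 non-coding RNAs Mirg by 29.9 ± 1.38 and Rian by 29.6 ± 1.00. Cdkn1c, a maternally expressed cell cycle inhibitor, differed by 6.67 ± 0.511. Peg13, a paternally expressed RNA inside an intron of Trappc9, measured 54.7%, 50.3% and 54.3% in TET_WT and 38.5%, 38.3% and 37.1% in TET_KO. The difference of -15.1 points ± 1.66 (limma adjusted p = 1.43e-09) held without any one of the 6 libraries. DNMT_WT, the parent of the other knockout line, measured 11.3% over Peg13 on D1.

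Around Peg13, TET_KO was lower in 3 adjoining windows among those plotted. At chr15:72809399-72810122 the TET_WT libraries held 59.4%, 49.1% and 57.4% and the TET_KO libraries 10.1%, 3.55% and 3.06%, a difference of -49.7 points ± 2.86. This was the lowest value of any window in the genome. The next window, chr15:72810123-72812517, differed by -29.5 ± 1.77, and the one before it, chr15:72806803-72809398, by -12.7 ± 3.10. In the neighbouring windows on both sides TET_KO was higher, by 31.5 and 26.5 points. In DNMT_WT the lowest window held 2.86%, so TET_KO lay nearer to this other line there than to its parent. DNMT_WT was low over the whole genome on D1, with a window mean of 13.7% against 33.2% in TET_WT. Over the whole Peg13 body TET_KO lay nearer to its parent.

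Of 32 imprinted starts 14 were higher and 2 lower, beside 49.6% and 0.0350% of all starts. The lower ones are those of Peg3, a paternally expressed zinc finger gene, and Usp29, which share 1 window at chr7:6730332-6731874. It measured 15.98%, 17.6% and 22.6% in TET_WT and 7.80%, 5.77% and 6.80% in TET_KO, a difference of -11.9 points ± 2.75 without overlap. DNMT_WT, low over the whole genome on D1 (window mean 13.7%), held 1.32% there, so TET_KO lay nearer to it than to its parent. Over the body of Usp29 the lines differed in the other direction, by 30.3 points ± 1.07. Outside the list, the start of Nkx2-1, a homeobox factor of lung, thyroid and forebrain, measured 17.9%, 20.7% and 20.1% in TET_WT and 4.40%, 3.58% and 3.66% in TET_KO, -15.7 points ± 1.69. Zfp971, of a clustered zinc finger family whose reads may be shared between copies, differed by -11.6 ± 1.73. The fifth start called lower, that of Rev1, rested on 1 library: TET_WT held 0%, 31.9% and 1.16% and TET_KO at most 0.278%, and without TET_WT replicate 2 the difference was -0.49 points and no call.

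Windows called lower were few, 105 in all. Chromosome 5 held 16 of them and 27812 of the 422141 windows described, and chromosome 1 held 12 of them and 30892. A gene body was overlapped by 44 (41.9%), beside 52.4% of all windows. Not all stood alone, since 12 directly followed another window called lower. The medians of the 105 windows were 58.1% in TET_WT, 38.7% in TET_KO and 15.6% in DNMT_WT on D1. The 3 TET_KO libraries lay below all 3 TET_WT libraries in 93 of the 105 on D1, which follows from calling them on the D1 difference. In the D0 and D2 libraries, which are not part of that difference, the same order was seen in 69 and 89. Over all windows that order was seen in 0.0694% on D0 and 0.169% on D2. After the Peg13 window the lowest was chr14:27688410-27690283 in Erc2, a presynaptic scaffold gene, with 80.8%, 77.2% and 75.9% in TET_WT and 35.7%, 27.7% and 23.9% in TET_KO (-48.9 points ± 3.62). At chr8:40567071-40571237, in the phosphatase gene Mtmr7, the values were 60.3% to 61.3% and 12.3% to 20.6% (-43.2 ± 1.89). DNMT_WT held 38.02% at the Erc2 window and 5.50% at the Mtmr7 window. A window 11153 bp from Prdm15 differed by -41.0 ± 3.66 and one in Phkb by -38.7 ± 3.96.

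The highest differences in the genome were at Lhx9, a LIM homeobox gene of gonad, limb and brain development. At chr1:138840133-138841660 the TET_WT libraries held 4.85%, 5.95% and 4.06% and the TET_KO libraries 88.2%, 85.9% and 91.9%, a difference of 83.7 points ± 1.69 (limma adjusted p = 1.25e-22). The adjoining window, chr1:138841661-138842298, went from 0.101%, 0.316% and 0.181% to 79.7%, 72.4% and 82.5%, 78.0 points ± 2.48. DNMT_WT held 6.63% and 0.619% in these windows, so both wild-type lines were low. The window at chr1:138842376-138843811 that contains the printed promoter, whose RefSeq start lies inside the annotated gene, measured 1.34% ± 0.559 in TET_WT and 58.3% ± 2.92 in TET_KO (SD, n = 3). The difference was 33.6 points between 4275 and 9801 bp downstream of the start and 7.60 points between 6039 and 7223 bp upstream. A short window between 14088 and 14583 bp upstream stayed unmethylated in both lines (0.122 points ± 0.415).

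**Figure D4:**
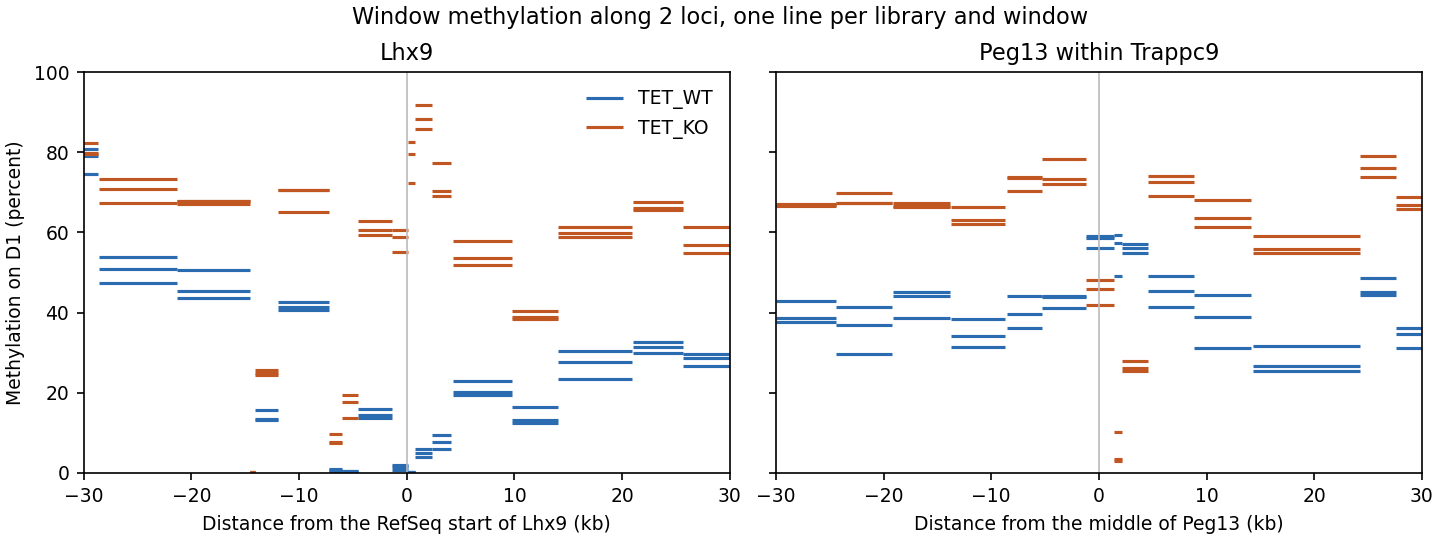
Methylation on D1 (y axis, percent) along Lhx9, by distance from its RefSeq start, and along Peg13, by distance from the middle of the gene (x axes, kb); each horizontal line is 1 window in 1 library, TET_WT blue and TET_KO orange. At Lhx9 the lines are farthest apart just after the start (83.7 points), and at Peg13 the order of the lines turns over in 3 windows (down to -49.7 points) between neighbours where TET_KO is higher.

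The other 8 of the 10 highest windows included a pair on chromosome 11 between Stac2 and Fbxl20. In the window 13046 bp from Fbxl20 the TET_KO libraries held 83.4%, 76.4% and 78.8% (76.04 points ± 2.28), and in the one 12710 bp from Stac2 they held 72.1%, 79.8% and 77.5% (75.1 ± 2.40). No TET_WT library exceeded 6.09% in either. The remaining windows lay in Gm40987 (75.6 points ± 2.19), Rrp15 (71.7 ± 4.26), Snx6 (71.4 ± 3.40), Sh3pxd2a (71.3 ± 1.98) and Son (71.1 ± 3.56), and 1 near Gm45938 (71.3 ± 2.32). All 10 were at or below 21.7% in every TET_WT library and at or above 71.5% in every TET_KO library.

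Whether the difference on D1 was the one already present on D0 was tested as a change of the difference. No window and no gene body passed in either direction (limma), and the smallest adjusted p over windows was 0.0772. At an unadjusted p below 0.05, 10597 windows had a larger and 19743 a smaller difference on D1, together 7.19% of windows, and among gene bodies 225 and 1076 (6.39%). On other scales a few passed: 2 larger and 98 smaller windows on the logit scale, and 7 and 52 with medians subtracted. Gene bodies gave 2 smaller on the logit scale, and 1 larger and 4 smaller with medians subtracted. The median change was -0.143 points, with a median standard error of 2.99, so changes of a few points per window were not detectable. The genome mean difference was 26.4 points ± 0.672 on D0 and 26.1 ± 1.04 on D1. Without TET_WT replicate 2 of D1, 69 windows passed with a smaller difference.

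Between D1 and D2 the difference narrowed over much of the genome. It was smaller on D2 in 187404 windows (44.4%) and larger in 5507 (1.30%), and smaller in 8041 gene bodies (39.5%) and larger in 154 (0.757%). With medians subtracted the split turned, to 16478 windows smaller and 61043 larger, and 93 and 1389 gene bodies, beside a genome mean difference that went from 26.1 to 18.1 points (a change of -7.97 ± 1.94). On the logit scale 84014 windows were smaller and 450 larger, and 81 gene bodies were larger. Without TET_WT replicate 2 of D2, 11106 windows and 329 gene bodies were larger. Windows inside genes changed by -9.37 points and windows outside by -6.43, with 52.1% and 35.9% called smaller. The windows longer than 16000 bp went the other way, by 2.56 points, and 14.3% of them were called larger against 1.30% of all windows.

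The changes differed between windows grouped by their D1 level in DNMT_WT, a line outside the comparison. Windows below 5% there changed by 1.72 points, with 6.16% called larger and 1.06% smaller. Windows of 5% to 20% changed by -9.00 points and 44.8% were called smaller, and windows of 20% to 40% changed by -13.4 points and 78.2% were called smaller. The 1405 windows of 40% to 60% changed by -7.39 points, and 26.4% were called smaller. Among genes, Gpr151, an orphan receptor, had a difference of 42.6 points on D1 that narrowed to 17.8 a day later, a change of -24.9 ± 2.31. Sdr9c7, an epidermal dehydrogenase, went from 35.9 points on D1 to 11.6 on D2. The genes whose difference grew most were the olfactory receptors Olfr202 (12.8 points ± 2.11) and Olfr1079 (12.4 ± 1.56), the exocrine peptide Esp16 (12.4 ± 1.70), the vomeronasal receptor Vmn2r73 (11.6 ± 1.80) and the prolactin relative Prl8a8 (11.5 ± 1.99), all members of clustered families whose reads may be shared between copies. In Olfr202 the D1 means were 15.2% and 34.7% and the D2 means 25.7% and 58.0%.

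Tet3, Dnmt1, Uhrf1, Zbtb38 and Kit were among the bodies whose difference was smaller on D2, Dnmt1 by -15.0 points ± 1.91 and Kit by -15.8 ± 1.73. Lhx9 was not, with successive daily differences of 40.6, 44.5 and 44.0 points, nor was Nanog, with 20.3, 20.03 and 21.6.

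**Figure D5:**
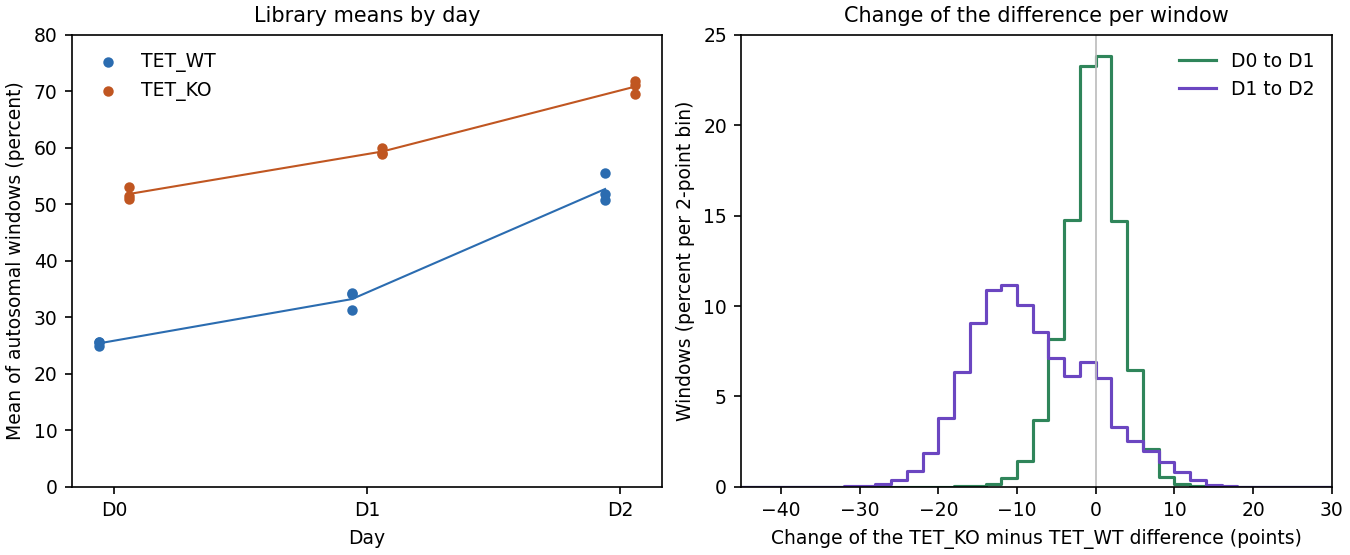
Left, mean methylation of autosomal windows (y axis, percent) in each library of TET_WT (blue) and TET_KO (orange) by day, with lines through the group means; right, distribution over windows (y axis, percent per bin of 2 points) of the change of the TET_KO minus TET_WT difference (x axis, points). The change from D0 to D1 (green) centres near 0 and that from D1 to D2 (purple) lies mostly below 0; the 2 curves share the D1 libraries.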

How the data were processed

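Whole-genome bisulfite libraries of 27 samples were deposited as one table of percent methylation per window of about 100 CpGs, computed by the authors. Per the submitters' processing notes, Trim Galore 0.6.6, cutadapt 2.3 and Bismark 0.23.0 were used with GRCm38. How windows were set, and any coverage filter, are not given in the sources used here, and the depth is unknown.

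Percentages were fitted with limma 3.58.1 (R 4.3.3; lmFit, eBayes with trend), with a mean per group (9 groups), on all nuclear windows with a value in all 27 libraries. P-values were Benjamini-Hochberg adjusted over the whole table, and a call needs adjusted p below 0.05 and at least 10 points. The table names no genes: gene bodies are means of autosomal windows overlapping RefSeq genes (GRCm38.p6). Starts lie within 1000 bp of the 5′ end of the body. The fit was tested on simulated data.

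Members, lists and tests were chosen with earlier results of these data known. Named genes were, per list, the 4 called members with the largest difference and the member with the smallest; over genes with at least 2 windows, the 5 highest and lowest; Tet1, Tet2, Tet3, Dnmt1, Dnmt3a, Dnmt3b, Dnmt3l, Uhrf1 and Nanog always; and the 10 windows per direction, or 5 for changes of the difference. A gene that the rule names is not reported here. Gene starts, their CpG classes and all genes named for a start, as well as Kit and Usp29, were chosen after values were seen. Alternatives were a logit scale, median-centred libraries, other sizes, only the groups compared, no trend, a replicate block, windows complete in the groups compared, a gene's shortest window, and each library left out.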

Additional observations from a re-analysis of the deposited data

Results flagged for a closer look

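A test of the difference between days marked 4 counts. From D1 to D2 the TET_KO minus TET_WT difference became smaller in 187404 windows and larger in 5507 windows. Over gene bodies it became smaller in 8041 genes and larger in 154 genes (limma, adjusted p below 0.05 and at least 10 points). With library medians subtracted the direction turned, with 16478 windows smaller and 61043 larger and 93 gene bodies smaller and 1389 larger. On the logit scale 84014 windows were smaller and 450 larger.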

How the results depend on the processing

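Library medians were taken separately over windows, gene bodies and gene starts, so the counts after subtraction share no common scale. With them subtracted, D1 counts were 12044 windows higher and 81434 lower, and 298 gene bodies higher and 2190 lower. Gene starts were 4639 higher and 4038 lower, and listed genes 6 higher and 121 lower. Changes from D0 to D1 were 7 windows larger and 52 smaller and 1 gene larger and 4 smaller; from D1 to D2, 61043 windows larger and 16478 smaller and 6.82% of gene bodies larger and 0.457% smaller. The logit scale gave 2 larger and 98 smaller windows and 2 smaller genes from D0 to D1, and 450 larger and 84014 smaller windows and 0.398% of gene bodies larger from D1 to D2. Without a minimum size, 322 windows, 4 genes and 31 starts were lower on D1, and on D2 18420 windows and 3.94% of gene bodies were larger and 80.2% of gene bodies smaller. At 20 points or more, 27 windows, 0 genes, 0 starts and 0 listed genes were lower on D1; on D2, 16 windows and 0.00491% of gene bodies were larger and 14347 windows and 0.172% of gene bodies smaller. A gene's shortest window gave 8455 genes higher and 12 lower (listed genes 121 and 4) and 12.6% of genes smaller on D2; the start window, added after seeing the data, gave 7091 and 5, and 13.3%. The difference of medians was 30.5 points. The cause of these changes was not tested.

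Leaving out each library in turn gave 389806 to 391953 windows higher and 103 to 129 lower on D1, 19497 to 19594 genes higher and 1 lower, 6994 to 7137 starts higher and 4 to 7 lower, 336 to 344 listed genes higher, and a mean difference of 25.1 to 26.6 points. From D0 to D1, 0 to 2 windows were larger and 0 to 69 smaller. From D1 to D2, 3955 to 11106 windows were larger and 154443 to 208858 smaller, and 0.501% to 1.62% of gene bodies larger and 27.3% to 48.3% smaller. The share larger was 1.62% without TET_WT replicate 2, 0.501% without TET_WT replicate 3 and 1.15% without TET_KO replicate 3, all of D2. Dppa5a ranged from -0.34 to 0.60, Foxd3 from -0.14 to 0.31 and Tex19.1 from -3.42 to 1.31 points.

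Median subtraction reversed the sign of Dppa5a (-25.5 points), Foxd3 (-25.4), Eef1a1 (-22.5), Nkx6-1 (-22.1), Gadd45b (-22.1), Hoxd11 (-21.9), Ascl2 (-20.7), Sox17 (-18.9), Cdkn1c (-18.9), Sox18 (-16.1), Tcstv3 (-12.3), Nanog (-5.51), Dnmt3b (-4.66), Hoxb1 (-2.19), Dnmt3a (-1.71), Tet3 (-0.84), Hoxc4 (-0.72), Hoxb13 (-0.40) and Dnmt3l (-0.21). The shortest window reversed Usp29 (-11.9), Lifr (-2.15), Tet1 (-1.16), Dnmt3b (-0.64), Sox18 (-0.43), Tet2 (-0.36), Tet3 (-0.29), Foxd3 (-0.22), Sox17 (-0.000145) and Tex19.1 (0.35). Of these, Dnmt3b, Sox18, Tet2, Tet3, Foxd3, Sox17 and Tex19.1 did not differ detectably in that window (limma adjusted p of 0.222 or more).

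Deviations of same-numbered libraries correlated between -0.0604 and 0.0286 over 15 pairs. These correlations leave out any shift of a whole library, so they cannot decide whether samples are paired by replicate number. With the number as a block, 391475 windows were higher and 105 lower on D1, 187398 were smaller and 5511 larger on D2, and the mean difference was 26.1 points, with an exact sign permutation p of 0.25, the smallest for 3 pairs. Depth is unknown, so small differences at near-unmethylated starts cannot be graded.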
